A study of Mus musculus with 32 samples.

Results

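The 10 myosin heavy chain genes followed here were the adult fast genes Myh1, Myh2 and Myh4, the slow and cardiac genes Myh7, Myh7b and Myh6, the developmental genes Myh3 and Myh8, the extraocular gene Myh13, and Myh14, which encodes a nonmuscle heavy chain. They were taken by name, with earlier results of these data known, from a table of 33397 genes, and all 10 were among the 22071 genes tested. RNA was sequenced from the GAS (gastrocnemius) muscle of C57BL/6 mice (C57BL/6J in the study's methods). The time points were 0, 1, 3, 5, 7, 14, 21 and 28 d, each of them holding 4 samples, which makes 32 in all. By the study's methods the mice were male, 6 to 8 weeks old, and lost a piece of the left sciatic nerve, which paralyses the muscle. The labels list sciatic nerve transection for every sample, 0 d included, while the study compares against a nondenervated sham group. The 0 d samples are therefore called 0 d here. The 4 columns named C in the table were taken as 0 d, the only time point that no other column name covers. No column was tied to a single animal, so p-values measure the spread between these samples, although the study describes its samples as biologically independent.

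A myosin heavy chain carries the motor head that splits ATP and pulls on actin, and the tail that packs into the thick filament of the sarcomere. Each muscle fibre is classed by the heavy chain it makes, from slow type I (Myh7) through fast IIA (Myh2) and IIX (Myh1) to the fastest IIB (Myh4), and the mouse gastrocnemius is mostly fast. Embryonic (Myh3) and perinatal (Myh8) chains are made by developing and regenerating fibres, and the choice of adult chain depends on the activity that the motor nerve imposes.

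Of the members, Myh3, Myh2, Myh1, Myh4, Myh8 and Myh13 lie in this order on the plus strand of chromosome 11 within 293287 bases (GRCm38, from 67078300 to 67371586). Myh6 and Myh7 lie 3756 bases apart on the minus strand of chromosome 14, Myh7b on chromosome 2 (155611212 to 155634307) and Myh14 on chromosome 7 (44605803 to 44670843). The promoters of 4 neighbours in the cluster are shown because 3 of these genes made nearly all of the heavy chain RNA and Myh8 was low before 5 d, and because their upstream letters are partly shared. Each line gives the bases from position -230 to -31 before the RefSeq start (GRCm38.p6, plus strand), and capitals mark every run of at least 14 bases that also occurs in the 250 bases upstream of another of the 4 genes. They cover chr11:67170797-67170996 for Myh2, chr11:67199872-67200071 for Myh1, chr11:67237582-67237781 for Myh4 and chr11:67276894-67277093 for Myh8.
Myh2: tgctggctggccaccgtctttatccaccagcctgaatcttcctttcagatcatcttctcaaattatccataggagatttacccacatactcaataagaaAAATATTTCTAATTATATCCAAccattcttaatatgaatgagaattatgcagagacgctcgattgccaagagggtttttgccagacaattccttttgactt
Myh1: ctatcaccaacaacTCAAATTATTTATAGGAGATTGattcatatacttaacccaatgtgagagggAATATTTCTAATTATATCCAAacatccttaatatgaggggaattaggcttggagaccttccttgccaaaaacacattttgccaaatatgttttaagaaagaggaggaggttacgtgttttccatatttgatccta
Myh4: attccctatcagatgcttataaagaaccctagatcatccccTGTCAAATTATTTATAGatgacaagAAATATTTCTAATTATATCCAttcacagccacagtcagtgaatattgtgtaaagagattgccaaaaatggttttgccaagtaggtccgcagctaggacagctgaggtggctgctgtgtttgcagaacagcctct
Myh8: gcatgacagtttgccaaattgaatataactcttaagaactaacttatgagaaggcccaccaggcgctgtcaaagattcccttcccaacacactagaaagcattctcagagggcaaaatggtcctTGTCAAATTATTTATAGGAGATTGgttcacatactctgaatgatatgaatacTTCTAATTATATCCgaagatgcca
A run of 20 bases occurred in Myh1, Myh2 and Myh4, beginning at -165, -130 and -163, and in no other of the 32851 upstream windows of 250 bases in the table. Myh8 held 14 of these letters, from -54 to -41. The other run in capitals, 22 bases long between Myh1 and Myh8 and 17 between Myh4 and Myh8, includes the MEF2 site, the binding motif of a muscle transcription factor family. On either strand, a MEF2 site was present in the windows of 3 of the 10 members (Myh1, Myh4 and Myh8) and in 2.92% of all windows. TATAAA was present in 4 of 10 members against 12.4% of all windows, and on the reverse strand of Myh1, Myh4 and Myh8 it lies inside the MEF2 site. Only Myh4 of the 10 held a CArG box (1.47% of all windows). CANNTG, the E-box, was present in 8 of 10 against 66.2%, while TCAGGTT, the MEF3 site, was present in 0 of 10 against 3.49%. A match describes letters only, and RefSeq and GENCODE place the start of Myh1 50 bases apart and that of Myh4 217 bases apart.

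The introns of Myh6, Myh7 and Myh7b each hold a microRNA, short RNAs that pair with messenger RNAs through their seed. An intron of Myh3 also holds a microRNA, Mir6923, which is not shown. For each of the others a mature sequence (RefSeq) is shown with the seed, bases 2 to 8, in capitals, and its other mature sequence is left out. They were chosen because the host genes Myh7 and Myh7b both rose between 21 and 28 d.
mmu-miR-208a-3p (in Myh6): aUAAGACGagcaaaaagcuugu
mmu-miR-208b-3p (in Myh7): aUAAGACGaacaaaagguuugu
mmu-miR-499-5p (in Myh7b): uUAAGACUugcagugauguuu
They lie at chr14:54949072-54949093, chr14:54975710-54975731 and chr2:155622893-155622913. The first 2 share the seed UAAGACG, and the seed of the third is UAAGACU. The table has low values for the loci of miR-208a and miR-208b, with mean FPKM of 0.0493 and 0.331, which do not measure the mature RNAs, and mature microRNAs were not analysed here.

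Values are FPKM, the fragments of a gene per unit of exon length and of library size. By the recovered fragments, the length is that of all annotated exons of a gene merged. It was 11772 bases for Myh8 and 8616 for Myh7, against 6016 for Myh4. A transcript shorter than the merged exons is understated, so levels, shares and ratios between genes are approximate. Each library held 14199916 to 17561594 recovered fragments. The tissue label was checked because the extraction text of the labels names another organ. Skeletal muscle markers summed to between 12181 and 20835 FPKM in every sample, and the 5 of 7 retina markers in the table to at most 0.266, none of which passed the filter on low values. The first sample at 3 d stood apart, with a mean Pearson r of 0.969 across genes with the other 3 of its day, whose own means were 0.979 to 0.982. Called changes of the heavy chains between 0 and 3 d are therefore given with and without it. Mitochondrial genes took 14.5% to 18.2% of the fragments at 0 d and 6.70% to 11.99% from 5 d on, a share that counts in the library size by which FPKM is divided. Over the 11943 genes whose mean FPKM reached 1, the median log2 fold change against 0 d was 0.12 for 1 d, 0.20 for 3 d, 0.24 for 21 d and 0.30 to 0.32 for the other times. Median-ratio scaling, which sets the middle of the genes equal between samples, brought it to between -0.02 and 0.03. It also changed the split of genes called higher and lower over the whole table, from 1400 and 550 to 913 and 1032 at 1 d, from 2924 and 1330 to 1987 and 2020 at 3 d, from 3296 and 852 to 1478 and 1696 at 5 d, and from 3403 and 905 to 1577 and 1747 at 7 d. The splits went from 3230 and 845 to 1448 and 1663 at 14 d, from 2599 and 867 to 1419 and 1578 at 21 d, and from 3143 and 906 to 1450 and 1789 at 28 d. With these 3 times together they went from 2930 and 862 to 1414 and 1651, from 3 to 5 d from 820 and 452 to 515 and 689, and from 14 to 21 d from 20 and 80 to 26 and 47. In bulk muscle, fewer fibres of a type and less RNA per fibre cannot be told apart.

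At 0 d the order of the members ran from Myh4 at 5531 ± 1043 FPKM (SD, n = 4) to Myh8 at 0.227 ± 0.0911. Myh1 (501 ± 150.3) and Myh2 (440.5 ± 106) followed Myh4, and their samples overlapped. Myh7 stood at 30.7 ± 11.3, Myh14 at 5.60 ± 0.702 and Myh7b at 1.42 ± 0.321. Myh3 (0.803 ± 0.367) overlapped Myh7b, Myh13 (0.749 ± 0.140) and Myh6 (0.468 ± 0.117). At 28 d the order was Myh4, Myh1, Myh2, Myh7, Myh3, Myh14, Myh8, Myh7b, Myh6 and Myh13, and no neighbours in this order overlapped. Over the 8 time points every member changed at some time, as the plot of all samples shows, apart from Myh6, whose change passed the test only on some scales.

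**Figure D1:**
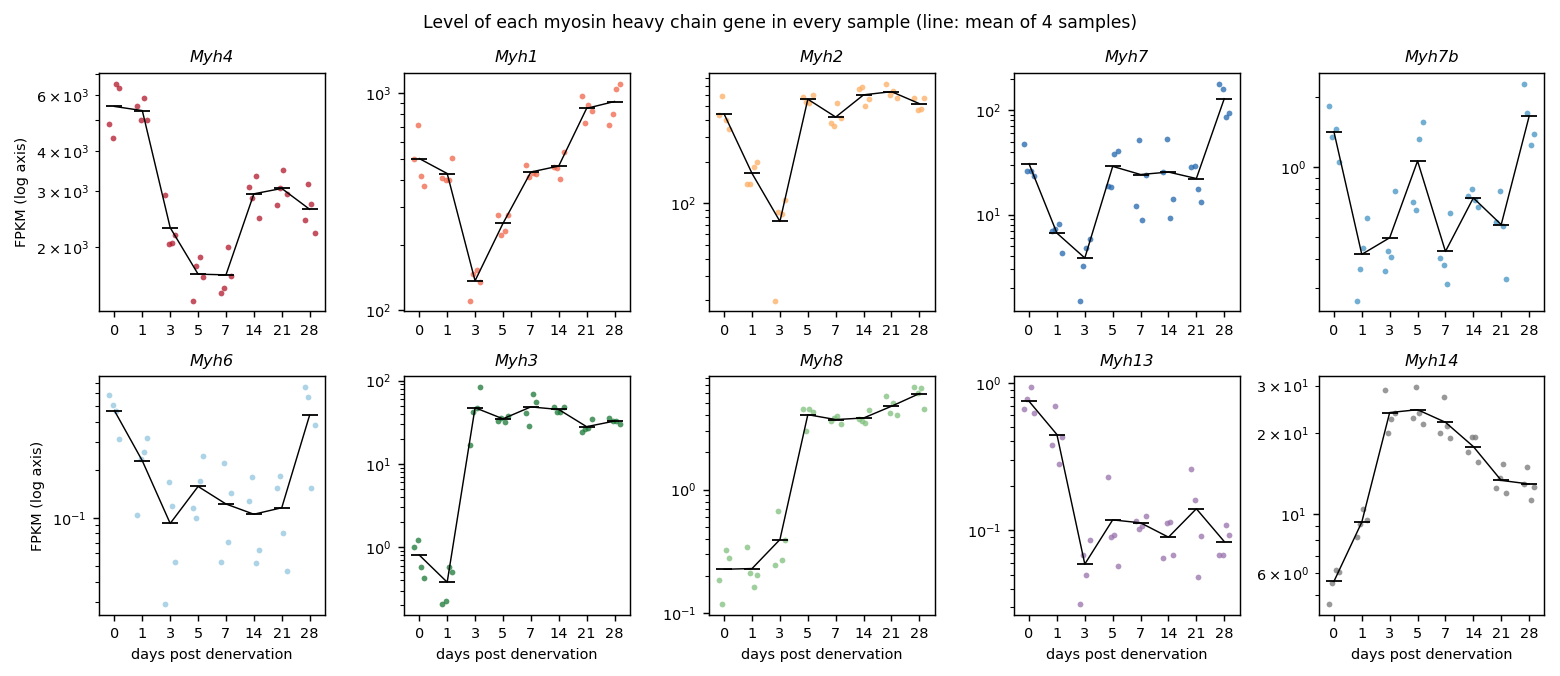
FPKM (log axis) of each of the 10 genes in all 32 samples against days post denervation, with points for samples and a line through the mean of 4. Myh4, Myh1, Myh2 and Myh7 were lowest between 3 and 7 d, Myh3 and Myh8 were above all 0 d samples from 5 d on, and Myh7 was highest at 28 d.

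The comparison of each time point with 0 d asks which heavy chain genes gained or lost RNA in the denervated muscle. Heavy chain proteins and fibre types were not measured in these data. A gene was called when limma's Benjamini-Hochberg adjusted p over all 22071 genes was under 0.05 and the change at least 1.5-fold on the log2(FPKM + 1) scale. At 1 d, 1 member was called higher and 3 lower, where 6.34% of all genes were called higher and 2.49% lower. At 3 d the counts were 2 and 6, against 13.2% and 6.03%, and without the first sample 8 members were again called. At 5 d and at 7 d they were 3 and 3, against 14.9% and 3.86% at 5 d and 15.4% and 4.1% at 7 d. At 14 d, 3 were higher and 2 lower, against 14.6% and 3.83%. At 21 d, 4 were higher and 3 lower, against 11.8% and 3.93%, and at 28 d, 5 and 2, against 14.2% and 4.1%. With 14, 21 and 28 d together, 3 were higher and 2 lower, against 13.3% and 3.91%. In that comparison Myh6 and Myh7b were also called lower with a pseudocount of 0.1 (-1.02 and -0.62) and limma-voom (-1.52 and -0.69), and Myh1 and Myh2 higher with TPM (0.72 and 0.61). All 7 comparisons of a day share the 4 samples of 0 d. The median log2 fold change of the 10 members was -0.71 at 3 d and 0.58 at 28 d, beside 0.06 and 0.14 over all genes tested.

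**Figure D2:**
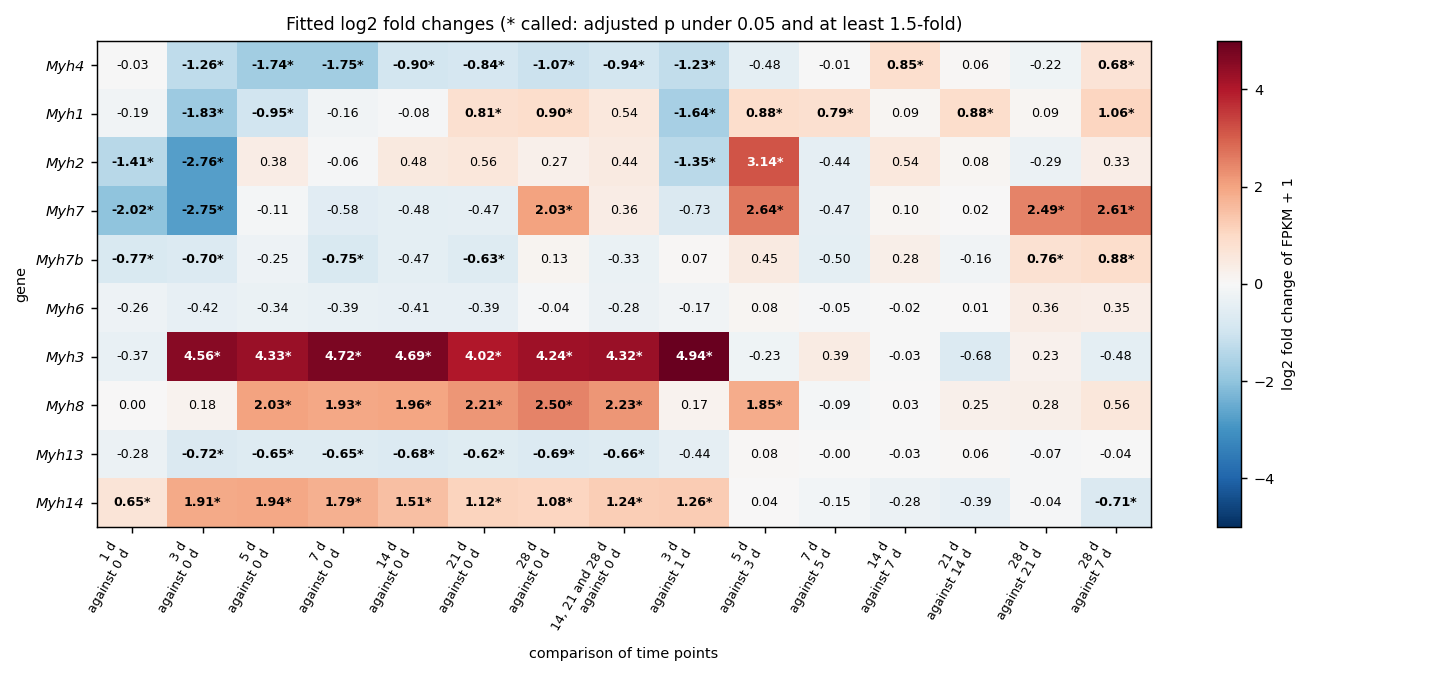
Fitted log2 fold changes of FPKM + 1 for the 10 genes (down) in 15 comparisons of time points (across), red for higher and blue for lower, with a star on called changes. Myh3 reached 4.94 between 1 and 3 d, and Myh2 fell by 2.76 at 3 d and rose by 3.14 from 3 to 5 d.

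Myh4, the IIB chain and the most abundant member in every sample, fell between 1 and 3 d and came back in part after 7 d. Its 0 d samples held 4879, 4412, 6504 and 6331 FPKM, and those of 1 d 5569, 5004, 5882 and 5015. At 3 d the values were 2907, 2045, 2067 and 2185, the highest in the sample that stood apart. At 7 d they were 1434, 1486, 2007 and 1617. No sample from 3 d on reached the lowest 0 d sample, while all samples of 1 d lay within the range of 0 d. The fitted log2 fold change against 0 d was -0.03 (SE 0.15) at 1 d, -1.26 at 3 d (limma, adjusted p = 3.53e-08), -1.75 at 7 d (adjusted p = 6.95e-11) and -1.07 at 28 d (adjusted p = 7.13e-07). Without the first sample, the value at 3 d was -1.38. From 1 to 3 d Myh4 fell by 1.23 (adjusted p = 1.1e-07), or by 1.35 without that sample. Quantile normalization ended the call of this step (-0.58, under 1.5-fold) and that of 3 d against 0 d (-0.32, adjusted p = 0.0688), and kept those at 5, 7, 14, 21 and 28 d.
From 7 to 14 d Myh4 rose to 3083, 2853, 3353 and 2469.6 FPKM, above all 4 samples of 7 d, by 0.85 on the log2 scale (limma, adjusted p = 0.00078). The call was lost with quantile normalization (0.56, under 1.5-fold). At 28 d the samples held 2427, 3153, 2727 and 2209 FPKM, a mean of 2629 ± 409 that was 2.1-fold below 0 d.

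Myh1, the IIX chain, dipped at 3 d and ended above its starting level. Its values at 0 d were 498, 713, 417 and 375 FPKM, and at 3 d 111, 147, 153 and 135, so that the groups did not overlap. By 7 d it held 469.7, 413, 428 and 424 FPKM, within the range of 0 d. At 28 d the values were 715, 806, 1046 and 1105, all above the highest 0 d sample. The log2 fold change against 0 d was -1.83 (SE 0.15) at 3 d (limma, adjusted p = 5.81e-11; -1.74 without the first sample), -0.95 at 5 d, 0.81 at 21 d and 0.90 at 28 d (adjusted p = 1.95e-05). Under median-ratio scaling the values at 21 and 28 d were 0.50 and 0.51, under 1.5-fold, with adjusted p = 0.0099 and 0.00792. Myh1 was the member that moved in most steps between neighbouring times. It fell by 1.64 from 1 to 3 d (1.55 without the first sample) and then rose by 0.88 from 3 to 5 d (0.78 without it), by 0.79 from 5 to 7 d (adjusted p = 0.00403) and by 0.88 from 14 to 21 d (adjusted p = 0.00155).

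Myh2, the IIA chain, was already lower at 1 d and was back in the range of 0 d by 5 d in most samples. The 0 d samples held 432, 590.0, 397 and 343 FPKM, and those of 1 d 137, 138, 183 and 199, all below 0 d. At 3 d the values were 19.96, 87.2, 83.7 and 106, the lowest by far in the sample that stood apart. At 5 d they were 587, 535, 533 and 599.9, above every sample of 3 d. The log2 fold change against 0 d was -1.41 (SE 0.29) at 1 d (limma, adjusted p = 0.000348) and -2.76 at 3 d (adjusted p = 4.83e-09), or -2.22 without the first sample. From 1 to 3 d it fell by 1.35 (adjusted p = 0.000517), by 0.81 without that sample, and a fit of only these 2 groups ended the call (adjusted p = 0.0575). From 3 to 5 d it rose by 3.14 (adjusted p = 4.25e-09), or by 2.60 without that sample. From 5 d on no comparison of a day with 0 d was called for Myh2, with values between -0.06 at 7 d and 0.56 at 21 d.

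The proportions of the adult chains shifted with these changes. The summed FPKM of the 10 members was 6512 ± 822 at 0 d. It stood at 2588 ± 343 on day 3 (2422 ± 104 without the first sample), at 2588 ± 329.7 on day 7 and at 4254 ± 324 on day 28. This was 3.99% ± 0.480 of all library fragments at 0 d, 1.57% ± 0.202 at 3 d and 2.69% ± 0.188 at 28 d. Myh4 made up 84.4% ± 5.83 of the sum at 0 d and 88.6% ± 3.8 at 3 d (86.7% without the first sample). From 5 d on its share lay below every sample of 0 d at 5, 7, 21 and 28 d, with 64.2% ± 4.39 at 5 d and 61.6% ± 5.35 at 28 d, while the highest sample at 14 d (77.3%) passed the lowest at 0 d (76.7%). Myh2 went from 6.97% ± 2.45 at 0 d to 22.2% ± 2.69 at 5 d, and Myh1 from 7.96% ± 3.28 to 21.7% ± 4.80 at 28 d. These shares do not depend on the scaling between samples and were not tested.

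**Figure D3:**
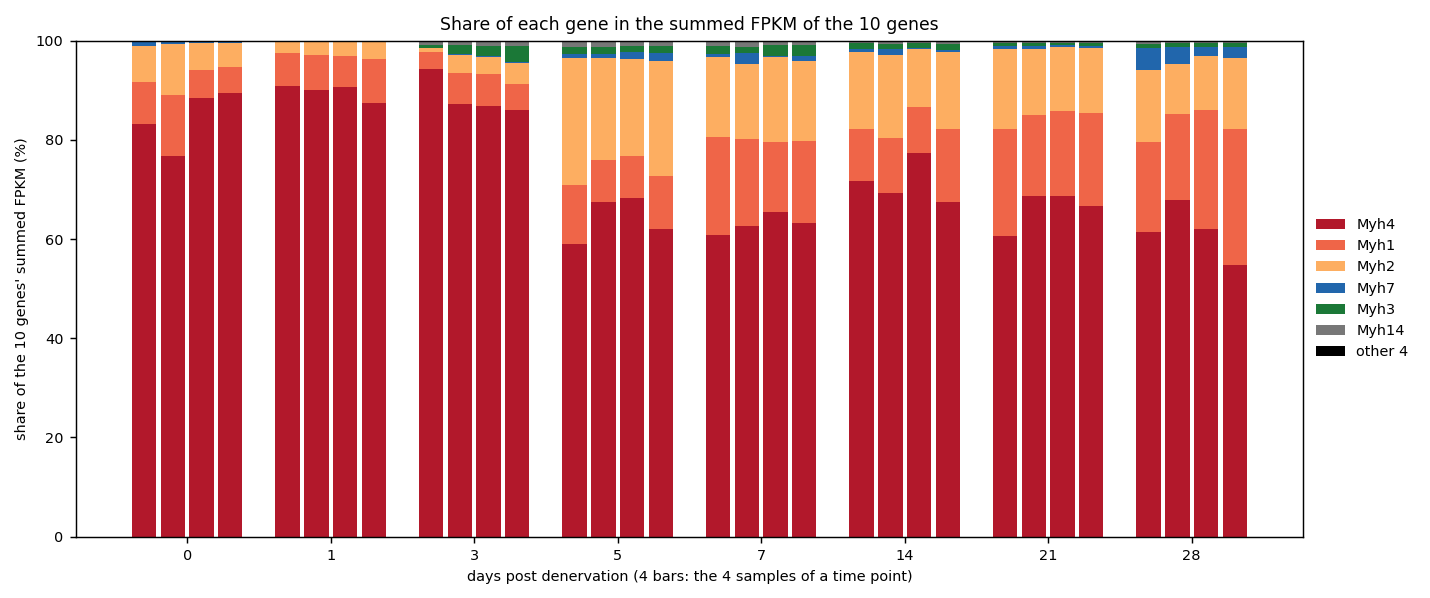
Share (%) of each gene in the summed FPKM of the 10 genes, 1 bar for each of the 32 samples, grouped by days post denervation. Myh4 (dark red) made up 76.7% to 89.4% at 0 d and 54.8% to 67.9% at 28 d, and the slow gene Myh7 (blue) reached 4.52% in a sample of 28 d.

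The ratio of Myh4 to Myh2 within a sample was 13.4 ± 4.97 at 0 d and 33.5 ± 6.55 at 1 d, and fell to 2.94 ± 0.542 at 5 d. At 1 d its lowest sample (25.2) was above the highest at 0 d (18.5), and at 5 d the highest (3.50) was below the lowest at 0 d (7.48). The ratio of Myh2 to Myh1 turned over in the same interval, from 0.385 ± 0.0552 at 1 d to 2.25 ± 0.114 at 5 d, and was 0.590 ± 0.148 at 28 d. Myh2 was thus the higher of the pair in all samples of 5 d and the lower in all samples of 28 d.

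**Figure D4:**
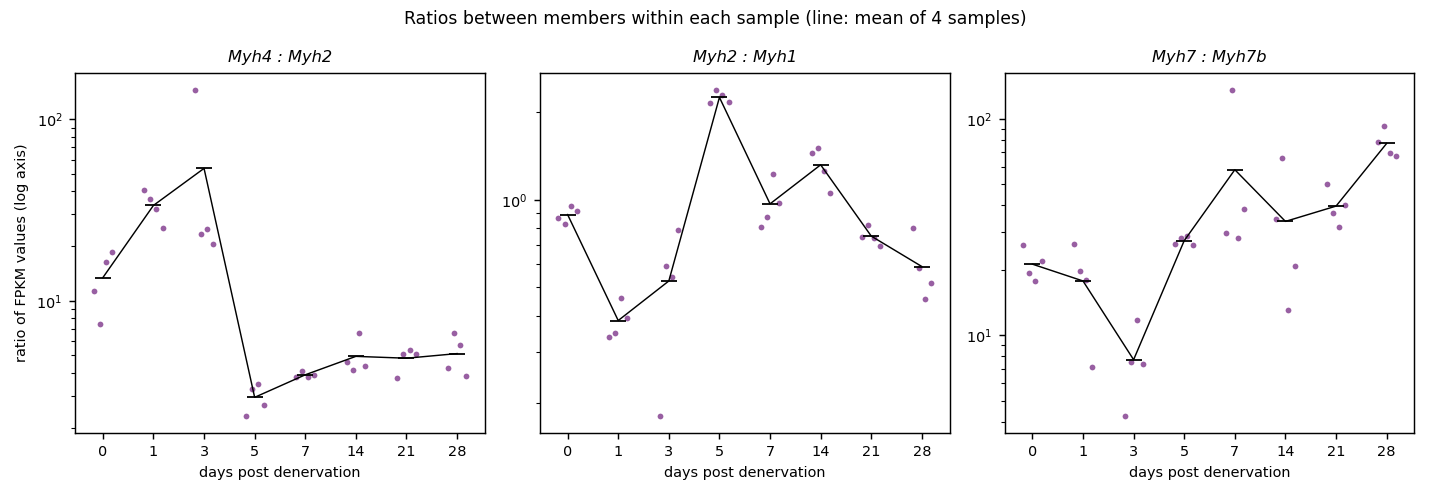
Ratio of FPKM values of 2 members within each sample (log axis) against days post denervation, with points for samples and a line through the mean of 4. Myh4 to Myh2 was lowest at 5 d (2.94), Myh2 to Myh1 highest at 5 d (2.25) and Myh7 to Myh7b 77.0 at 28 d against 21.3 at 0 d.

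Myh7, the chain of slow type I fibres, fell early and rose late. Its 0 d samples held 47.6, 26.1, 26.0 and 23.3 FPKM, and those of 1 d 7.00, 7.21, 8.06 and 4.31, all lower. At 3 d the values were 1.5, 3.25, 4.78 and 5.83. The lowest of these again came from the sample that stood apart. The log2 fold change against 0 d was -2.02 (SE 0.47) at 1 d (limma, adjusted p = 0.00109) and -2.75 at 3 d (adjusted p = 1.41e-05), or -2.47 without that sample. By 5 d the values were 18.8, 18.5, 38.1 and 40.6 FPKM, a rise of 2.64 from 3 d (adjusted p = 8.58e-05), or of 2.35 without that sample.
From 7 to 21 d the samples of a day were far apart, with 12, 51.8, 8.90 and 24.2 FPKM at 7 d, 25.8, 53.2, 9.37 and 14.1 at 14 d, and 28.9, 29.0, 17.7 and 13.1 at 21 d. At 28 d they held 179, 159, 86.3 and 93.8 FPKM, each above all 28 samples of the other times. The rise was 2.49 on the log2 scale against 21 d (SE 0.47, limma, adjusted p = 0.00545), 2.61 against 7 d (adjusted p = 0.00019) and 2.03 against 0 d (adjusted p = 0.000624), and the mean was 4.21-fold that of 0 d. Leaving out any sample gave 1.85 to 2.25 against 0 d and 2.28 to 2.66 against 21 d.

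Myh7b, an ancient sarcomeric chain whose gene hosts miR-499, stood near 1 FPKM. Its 0 d samples held 1.83, 1.34, 1.46 and 1.05, those of 21 d 0.580, 0.789, 0.559 and 0.329, and those of 28 d 2.28, 1.71, 1.24 and 1.38. The samples of 28 d lay above all of 21 d, 3 of them within the range of 0 d and 1 above it. It was called lower at 1 d (-0.77, limma, adjusted p = 4.22e-05), 3 d (-0.70, or -0.65 without the sample that stood apart), 7 d (-0.75) and 21 d (-0.63). At 14 d, where all samples were below those of 0 d, it was not called (-0.47), but it was with a pseudocount of 0.1 (-0.84), median-ratio scaling (-0.69), quantile normalization (-0.72) and limma-voom (-0.92). From 21 to 28 d it rose by 0.76 (SE 0.13, adjusted p = 0.00353), a call that a fit of only these 2 groups ended (adjusted p = 0.0616). With Myh7 it made up 2 of the 35 genes called higher in this step (0.159% of all genes), while 0.0408% were called lower. On recovered fragments with limma-voom, which adds no pseudocount of 1, the step was 1.57.

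Myh6, the alpha cardiac chain next to Myh7, was low throughout. It held 0.589, 0.508, 0.468 and 0.309 FPKM at 0 d (33 to 61 fragments), 0.0291, 0.169, 0.119 and 0.0529 at 3 d (3 to 19 fragments), and 0.655, 0.566, 0.153 and 0.382 at 28 d. All samples from 3 to 21 d were below all of 0 d, while those of 28 d overlapped 0 d. On the log2(FPKM + 1) scale, which damps the folds of low genes, no change of Myh6 was called (-0.42 at 3 d, limma, adjusted p = 0.000111, or -0.40 without the first sample). With limma-voom the values were -2.50 at 3 d (adjusted p = 0.000337) and -0.24 at 28 d. Of the 75-base stretches of Myh6, 13.7% also occur in Myh7, so fragments of the more abundant gene may be counted in either, and levels of Myh6 are uncertain. Heart markers summed to 1.74 to 3.03 FPKM at 0 d and 17.0 to 22.6 at 28 d. Of the 2 tested, 1 was called higher at 28 d (Myl4, which is also on the developmental list), beside 14.2% of all genes. Nkx2-5 was at 0 in every sample from 0 to 21 d. The part of the heart markers was not tested.

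The slow chains can be set beside the other proteins of slow fibres from a fixed list of 10 genes. Of these, 9 were called lower at 1 d and 6 at 3 d, with none higher, and 6 also at 3 d without its first sample, beside 2.49% of all genes lower at 1 d and 6.03% at 3 d. With median-ratio scaling 9 were lower at 3 d. At 28 d, 7 were called higher than at 0 d and none lower, and 8 were higher than at 7 d, beside 14.2% and 1.5% of all genes. The median log2 fold change of the list was 1.27 at 28 d, beside 0.14 over all genes tested, and with median-ratio scaling 6 were higher. Named by the size of their change, the troponins Tnnt1 (2.27, limma, adjusted p = 4.3e-06), Tnni1 (2.18) and Tnnc1 (1.62) and the calcium store protein Casq2 (1.28) led. Tnnc1, the slow calcium sensor, held 283, 132, 98.3 and 94.9 FPKM at 0 d, 86.9, 119, 56.8 and 57.1 at 21 d, and 575, 481, 375 and 309 at 28 d. In every group except that of 1 d, the sample highest in Myh7 was also highest in Tnnc1 (283 FPKM at 0 d, 176 at 7 d and 167 at 14 d). Over all 32 samples, the genes outside the family most like Myh7 were Tnnc1 (r = 0.945), the slow regulatory light chain Myl2 (r = 0.942) and the slow tropomyosin Tpm3 (r = 0.931), a description that includes the shared change over time.

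**Figure D5:**
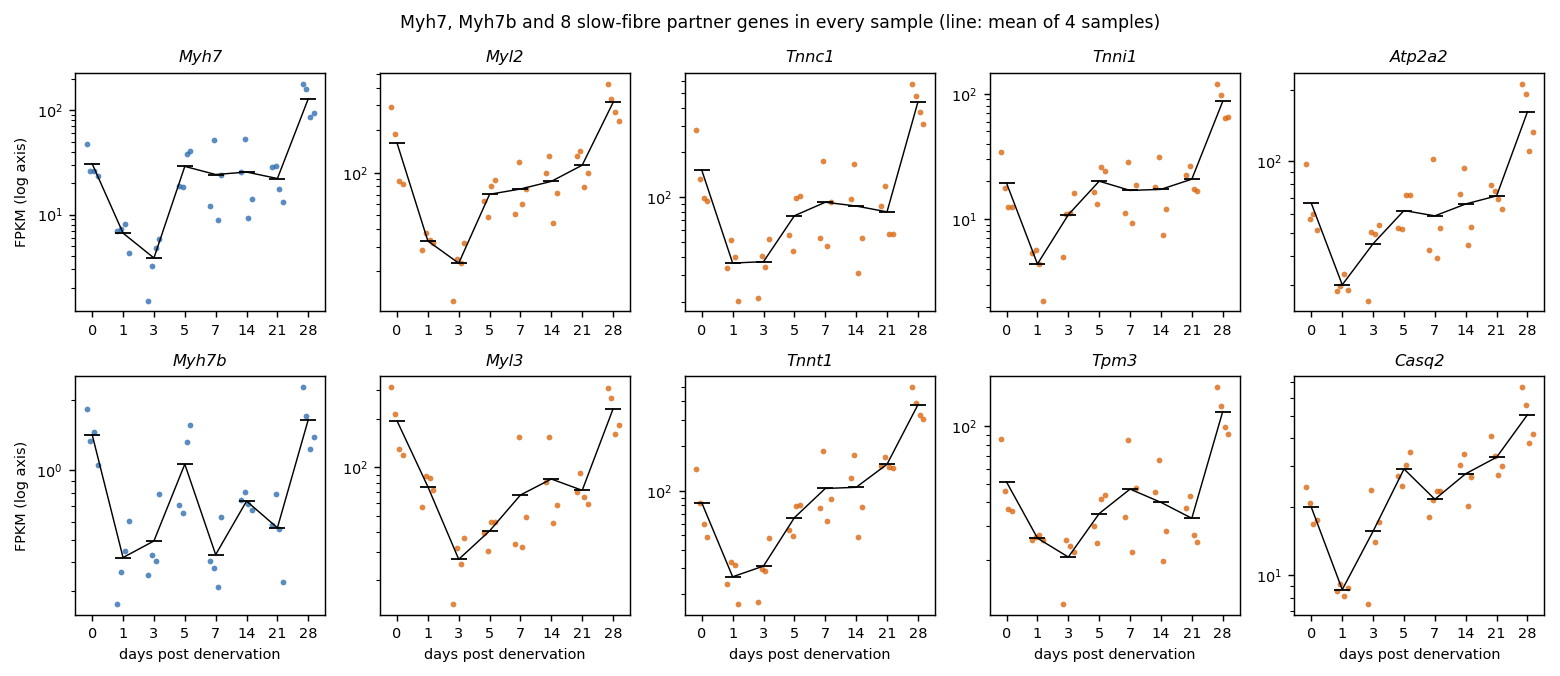
FPKM (log axis) of Myh7, Myh7b (blue) and 8 slow-fibre partner genes (orange) in all 32 samples against days post denervation, with a line through the mean of 4. Myh7 and Tnnc1 were higher at 28 d than in any earlier sample.

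Of 10 fast-fibre partners, 7 were called lower at 3 d (8 without the first sample) and 7 lower and 1 higher at 28 d, with a median log2 fold change of -0.73 at 28 d. Over all genes 6.03% were lower at 3 d, and 4.1% lower and 14.2% higher at 28 d. The largest changes were those of Mybpc2, the fast myosin-binding protein C (-4.01, limma, adjusted p = 2.2e-15), and the troponins Tnni2 (-1.01) and Tnnt3 (-0.88). The calcium pump gene Atp2a1 fell by 0.79. Actn3, which anchors thin filaments in fast fibres, was the gene called higher (0.65), and with median-ratio scaling it was not called. Among 9 thick-filament partners 2 were higher and 3 lower at 28 d, beside 14.2% and 4.1% of all genes, and with median-ratio scaling 2 were higher and 5 lower. Mybph, a myosin-binding protein H gene, rose by 4.59 and Myom3, an M-band gene, by 3.47. Mybpc2 and Mylk2, the kinase of the regulatory light chain, fell by 4.01 and 3.36. Of 7 myosin folding genes, Hsp90aa1, which encodes a chaperone, rose by 1.29 at 28 d and Smyd2 fell by 0.71, 1 gene in each direction beside 14.2% and 4.1% of all genes, so that the higher call was near the share over all genes. With median-ratio scaling 1 was higher and 2 lower.

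Myh3, the embryonic chain, rose between 1 and 3 d and stayed above its 0 d level. Its 0 d samples held 0.996, 1.22, 0.573 and 0.426 FPKM, and those of 1 d 0.209, 0.225, 0.574 and 0.510. At 3 d the values were 16.7, 41.6, 47.5 and 83.3, the lowest in the sample that stood apart. Every sample from 3 d on was above every sample of 0 and 1 d. The mean at 3 d, 47.3 ± 27.5 FPKM, was 58.9-fold that of 0 d, and the log2 fold change on the scale with a pseudocount was 4.56 (SE 0.28, limma, adjusted p = 5.33e-14), or 4.98 without the first sample. Later means were 48.4 ± 17.5 FPKM at 7 d and 45.0 ± 3.47 at 14 d, and then 27.98 ± 4.71 at 21 d and 32.7 ± 2.29 at 28 d. With all samples, none of the steps after 3 d was called for Myh3, but without the first sample of 3 d it was called lower from 3 to 5 d (-0.65, adjusted p = 0.0336, against -0.23 with it). From 14 to 21 d it changed by -0.68, which was called only in a fit of the groups compared (adjusted p = 0.0161). It made up at most 3.28% of the family sum in any sample.

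Myh8, the perinatal chain, was called higher from 5 d on, at a lower level than Myh3. It held 0.187, 0.120, 0.323 and 0.278 FPKM at 0 d and 0.244, 0.670, 0.271 and 0.393 at 3 d, which overlap. At 5 d the values were 4.48, 2.99, 4.46 and 4.22, and at 28 d 6.72, 6.04, 6.61 and 4.53, all above every sample of 0, 1 and 3 d. Against 0 d the log2 fold change was 0.18 (SE 0.11) at 3 d (limma, adjusted p = 0.234, or 0.23 without the first sample), 2.03 at 5 d (adjusted p = 1.71e-14) and 2.5 at 28 d (adjusted p = 1.89e-16). In limma-voom, which lacks that pseudocount, the 28 d value was 4.77, and the mean was 26.3-fold that of 0 d. The ratio of Myh3 to Myh8 was 129.5 ± 75.6 at 3 d and 5.56 ± 0.699 at 28 d. Its size depends on the merged exon lengths, 6057 bases for Myh3 and 11772 for Myh8.
Of 10 developmental and denervation-responsive genes, 9 were called higher and 1 lower at 3 d, with or without its first sample, and 9 higher at 28 d, with a median log2 fold change of 3.31 at 28 d. Over all genes the shares were 13.2% higher and 6.03% lower at 3 d and 14.2% higher at 28 d. Chrng and Chrna1, subunits of the acetylcholine receptor, rose by 5.80 and 5.45 at 28 d (limma, adjusted p = 5.6e-19 and 2e-19). Myog and Myod1, regulators of muscle differentiation, rose by 5.36 and 3.44. Myog and Myod1 were already higher at 1 d, by 3.15 and 1.71, when neither Myh3 (-0.37) nor Myh8 (0.00) was called, although Myh3 was called lower with a pseudocount of 0.1 (-0.91, adjusted p = 0.0396). The satellite cell markers Pax7 and Myf5 summed to 1.75 to 1.90 FPKM at 0 d and 3.05 to 4.31 at 28 d, and their part in these results was not tested.

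Myh13, the extraocular chain, fell to near the limit of detection. It held 0.662, 0.781, 0.933 and 0.622 FPKM at 0 d (61 to 88 fragments) and 0.0317, 0.0677, 0.0497 and 0.0863 at 3 d (3 to 9 fragments). Every sample from 3 d on was below every sample of 0 d. The log2 fold change was -0.72 (SE 0.07) at 3 d (limma, adjusted p = 3.61e-10, or -0.71 without the first sample) and -0.69 at 28 d, and with limma-voom -3.61 and -3.10. At 1 d it was not called (-0.28), but it was with a pseudocount of 0.1 (-0.68) and with limma-voom (-0.80). At 28 d it held 7 to 11 fragments a sample, where 3 is the floor used here. At 21 d, where the value was -0.62, the call was lost without the third sample of 0 d or of 21 d (-0.57 and -0.58). Some 5.01% of its 75-base stretches also occur in other members, 2.81% in Myh8. The neighbour Myh4 held 396128 to 604647 fragments a sample at 0 d. Whether fragments of other members were counted in Myh13 was not tested, and its levels are uncertain.

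Myh14, the heavy chain of nonmuscle myosin IIC, was the only member called at all 7 times against 0 d. It held 4.63, 5.55, 6.16 and 6.07 FPKM at 0 d, 8.21, 9.15, 10.4 and 9.47 at 1 d, 28.9, 19.996, 22.6 and 23.8 at 3 d, and 12.9, 14.9, 11.3 and 12.6 at 28 d. No later sample overlapped 0 d. The log2 fold change was 0.65 (SE 0.12) at 1 d (limma, adjusted p = 7.66e-05), 1.91 at 3 d (adjusted p = 8.22e-14; 1.81 without the first sample) and 1.08 at 28 d (adjusted p = 1.13e-08). The 1 d call was lost with median-ratio scaling (0.49), with quantile normalization (0.48) and without the first sample of 0 d (0.57). From 7 to 28 d Myh14 fell by 0.71 (adjusted p = 7.25e-05). Macrophage and leukocyte markers moved in the same period, from 38.0 to 56.7 FPKM at 0 d, to 173 to 322 at 3 d and 126 to 140.2 at 28 d. At 28 d, 5 of 5 were called higher, beside 14.2% of all genes. With median-ratio scaling Csf1r was not called (0.55, under 1.5-fold). The part of these markers in the level of Myh14 was not tested. Of the other class II heavy chains, Myh10, a nonmuscle chain, was called higher at 28 d (0.69), and Myh9, Myh11 and Myh15 were not called, with 0.51, -0.39 and 0.25. With median-ratio scaling Myh10 was not called and 1 of the 4 genes was lower. Schwann cell markers summed to 73.5 to 163 FPKM at 0 d and 9.12 to 23.7 at 28 d, with 1 of 4 called higher and 2 lower. At 28 d, 0 of 5 smooth muscle markers and 0 of 3 fibro-adipogenic markers were called, and 1 of 3 endothelium markers was lower. Of 6 skeletal muscle markers 3 were higher and 2 lower. The shares over all genes were 14.2% higher and 4.1% lower. With median-ratio scaling 4 of the 5 smooth muscle markers and 2 of the 3 endothelium markers were called lower. Among the skeletal muscle markers Mb and Myf6 were then higher, Acta1 and Ckm lower, and Des and Ttn not called. The part of these cells in the levels of the heavy chains was not tested.

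Comparisons of neighbouring time points place these changes in order. From 1 to 3 d, 2 members were called higher (Myh3 and Myh14) and 3 lower (Myh1, Myh2 and Myh4), against 6.63% and 3.93% of all genes, with Myh4 not called under quantile normalization (-0.58) and Myh2 not called in a fit of only these 2 groups (adjusted p = 0.0575). Myh13 (-0.44) was called lower in this step with a pseudocount of 0.1 (-1.74), TPM (-0.88) and limma-voom (-2.81). From 3 to 5 d, 4 were higher (Myh1, Myh2, Myh7 and Myh8) and 0 lower, against 3.72% and 2.05%. In this step Myh4 (-0.48) was called lower with median-ratio scaling (-0.63, adjusted p = 0.0173) and quantile normalization (-0.72), and Myh7b (0.45) was called higher with a pseudocount of 0.1 (0.93), TPM (0.72) and limma-voom (1.06). From 5 to 7 d only Myh1 was called higher and no member lower, against 0.449% and 0.208%. From 7 to 14 d only Myh4 was called higher, against 0.376% higher and 0.258% lower. From 14 to 21 d only Myh1 was, against 0.0906% and 0.362%. From 21 to 28 d the 2 were Myh7 and Myh7b. Between 7 and 28 d, Myh1 (1.06), Myh4 (0.68), Myh7 (2.61) and Myh7b (0.88) were higher and Myh14 lower, against 1.5% and 1.46%. The rise of Myh4 was lost with quantile normalization (0.56). Myh8 (0.56) and Myh6 (0.35) were called higher with a pseudocount of 0.1 (0.67 and 1.23), TPM (0.61 and 0.69) and limma-voom (0.68 and 1.83), and Myh8 also without the third sample of 7 d (0.59) or the fourth of 28 d (0.67).

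Several members overlap genes on the other strand, and whether counting used strand is not given in the sources used here. Myh1 shares 515 exon bases with Myhas, an antisense gene that runs from within Myh1 to just before Myh4, and Myh2 shares 237 with 9430073C21Rik. Myhas held 17.2, 20.5, 20.6 and 19.8 FPKM at 0 d, 0.676, 0.796, 0.848 and 0.789 at 3 d, and 5.73, 5.34, 6.53 and 6.78 at 28 d. It was thus lower than at 0 d in every later sample, by 3.53 on the log2 scale at 3 d (limma, adjusted p = 3.28e-20) and by 1.53 at 28 d, where Myh1 was higher than at 0 d. 9430073C21Rik held 4.36, 8.05, 5.55 and 5.22 FPKM at 0 d, 0.356, 0.538, 0.371 and 0.530 at 1 d, and 12.2, 11.5, 10.4 and 9.85 at 5 d. It fell by 2.20 at 1 d, rose by 1.26 from 1 to 3 d, when Myh2 fell, and rose by 1.79 from 3 to 5 d, when Myh2 rose. Both antisense genes were singled out after their values were seen. Myh7 shares 484 exon bases with Mhrt and 523 with Gm31251, both with mean FPKM under 0.1. Myh7b shares 37 exon bases with Trpc4ap, whose mean of 19.8 FPKM was far above the 0.265 to 2.28 FPKM of Myh7b in single samples, so the low values of Myh7b are uncertain to that extent. Of the 75-base stretches of Myh1 and Myh2, 15.8% and 13.9% also occur in other members, which leaves part of their fragments uncertain between the pair, while Myh7b and Myh14 share none. These stretches are shorter than the reads the study describes. Such shares, also those of Myh6 and Myh13, can therefore exceed the shares of fragments left uncertain.

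Among 19 known regulators of heavy chain genes, 3 were called higher and 3 lower at 28 d, with a median of -0.06, beside 14.2% and 4.1% of all genes, so that the higher calls were near the share over all genes. Tead4, a partner of myogenic factors, rose by 1.66 and Eya4, a coactivator of homeodomain factors, by 1.03, and Maf, a large Maf factor, fell by 1.48. Prox1, a factor tied to slow fibres, rose by 0.75 at 28 d (limma, adjusted p = 4.1e-06), a call that median-ratio scaling ended (0.57, under 1.5-fold), and Thra, a thyroid hormone receptor, fell by 0.75. Mafa, a large Maf factor tied to Myh4, fell by 1.95 at 1 d (adjusted p = 6.5e-15), when Myh4 was not called, and by 0.62 at 28 d. Mafa and Prox1 were singled out after their values were seen. With median-ratio scaling 2 regulators were higher and 6 lower at 28 d. By likeness over the 32 samples, the nearest genes were Mb (r = 0.923) for Myh1, Tpm2 (r = 0.946) for Myh2, Myl12a (r = 0.981) for Myh3, Acsl3 (r = 0.971) for Myh8 and Nol3 (r = 0.977) for Myh14. These coefficients describe a shared course over 8 groups of 4 samples, and carry no test.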

How the data were processed

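The authors sequenced RNA as paired-end reads and deposited 1 FPKM value per gene and sample for 33397 genes. The submitters' processing notes name HISAT2 2.1.0, CASAVA and DESeq2 and the build GRCm38, with no role or order, and the counting tool and annotation are not given in the sources used here. Merged exon lengths of GENCODE mouse release 21 turned the deposited FPKM values of 33356 genes (99.9%) back into fragments, and 99.3% to 99.4% of values under 200 fragments came out whole within 0.05. Depth per sample was 14199916 to 17561594 fragments, and intervals and floors cover counting error only. Groups came from the labels' time points, with 4 samples each. Every pair of samples of a day differed by more than sampling noise (chi-square per degree of freedom 4.00 to 66.6).

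From the FPKM values, log2(FPKM + 1) of all 32 samples was fitted with limma 3.58.1 in R 4.3.3 (lmFit, contrasts, eBayes with a variance trend). A gene entered the fit where 4 or more samples reached an FPKM of 0.1, and calls needed an adjusted p (Benjamini-Hochberg) under 0.05 together with a 1.5-fold change. Fold changes on this scale understate those of low genes. The step was tested on simulated data. Promoter and microRNA sequences came from RefSeq tables, and Python 3.11.15 with pandas 2.3.3 and matplotlib 3.10.9 did the rest. The 10 members and 16 lists were chosen with earlier results of these data known. All members were named, with the 3 genes most like each member of mean FPKM at least 1, of which all 3 are printed for Myh7 and the first for the others (that of Myh4 is not reported here), and of each list up to 4 members with the largest called changes at 28 d. Protein sequences were not used here.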

Additional observations from a re-analysis of the deposited data

Results flagged for a closer look

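In each group of 4 samples, the highest or lowest value of a member was examined for a gap to the others that is large against the range of the group. Of 80 groups, 3 had such a value, where chance gives about 1 in 20, or 4. Myh1 at 1 d was 506 FPKM in 1 sample and 398 to 406 in the other 3. Myh4 at 3 d was 2907 FPKM in the sample that stood apart across genes and 2045 to 2185 in the others. Myh7 at 0 d was 47.6 FPKM in 1 sample and 23.3 to 26.1 in the others, and the same sample held the most Tnnc1 of its day.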

How the results depend on the processing

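Of 150 pairs of a member and a comparison, 67 were called. The 87 that were called as reported, under 1 of 9 other settings or with 1 sample left out were followed through these. Under the filter of FPKM at least 1 in at least 4 samples only 71 of them could be followed. Myh6 and Myh13, which reached an FPKM of 1 in no sample, do not pass it. Only Myh3 at 5 d against 3 d, which was not called as reported (-0.23), changed direction, to 0.10 without the fourth sample of 3 d and to -0.65 without the first. The count of members called moved by more than 1.5 times in 4 comparisons. For 7 d against 5 d it went from 1 to 2 with a pseudocount of 0.1 and with limma-voom, which also called Myh7b (-1.08 and -1.25). It went for 14 d against 7 d from 1 to 0 with quantile normalization, and in fits of only the groups compared for 21 d against 14 d from 1 to 2 and for 28 d against 21 d from 2 to 1. Smaller moves gave 3 to 6 called at 1 d (4 as reported), 7 to 9 at 3 d (8), 5 to 7 at 5 d and at 7 d (6), 4 to 7 at 14 d (5), 6 to 8 at 21 d (7), 6 to 7 at 28 d (7), 4 to 7 with these last 3 times together (5), 4 to 6 for 3 d against 1 d (5), 4 to 5 for 5 d against 3 d (4) and 4 to 7 for 28 d against 7 d (5). The Myh4 share at 7 d was 63.0% of FPKM and 60.2% of fragments. With 1 sample left out, 1 to 2 members were called for 7 d against 5 d (2 without the first or second sample of 5 d), and counts of the other comparisons moved by at most 1. Myh7b at 21 d was no longer called without the first sample of 0 d (-0.55) or the fourth of 21 d (-0.55). Over all genes, the largest counts came from limma-voom, which called 3625 at 1 d instead of 1950, 6965 at 3 d instead of 4254, 6155 at 21 d instead of 3466, 7370 at 28 d instead of 4049, 7397 instead of 3792 with 14, 21 and 28 d together, 4093 instead of 2331 for 3 d against 1 d, 2836 instead of 1272 for 5 d against 3 d, 235 instead of 140 for 14 d against 7 d and 1218 instead of 654 for 28 d against 7 d, and from rescaling to TPM, which gave 7107 at 5 d instead of 4148, 7418 at 7 d instead of 4308, 7569 at 14 d instead of 4075 and 175 instead of 100 for 21 d against 14 d. For 28 d against 21 d, 44 genes were called, and 29 without the first sample of 28 d. The causes were not tested. Counts of 3 to 28 fragments a sample limit Myh6 and Myh13 from 3 to 21 d. No paired analysis was possible because the columns of the table carry letters or numbers that match no replicate label.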
